A study of Mus musculus with 28 samples.

Results

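The genes Slc7a11, Cth, Cbs and Chac1 stand for the supply of cysteine from cystine uptake and from transsulfuration, and for the breakdown of glutathione, the tripeptide that serves cells as a store of cysteine. They were chosen by name for these roles, with earlier results of these data known. Each of the 4 had a row in every table of 55291 gene rows. RNA was sequenced in 28 libraries from mouse cells in 8 groups. In the first experiment LLC cells, a Lewis lung carcinoma line, were cultured for 36 h with 200 nM BAY-876, which inhibits the glucose transporter GLUT1, or with vehicle (3 libraries each). The second experiment combined a 24 h pretreatment of LLC cells with 200 nM BAY-876, or none, with 32 h of the inflammatory cytokine TNF at 20 ng/ml, or none, and gave 3 libraries each of BAY-876+TNF, BAY-876, TNF and control. The labels do not say whether the inhibitor stayed on during those 32 h. In the third, LLC-OVA-NGFR tumours, which carry ovalbumin and NGFR, grew under the skin of Rag1 ko mice, which cannot form own T or B cells. OT1 cells, transgenic T cells against an ovalbumin peptide, were transferred after activation on day 9, and OT1 cells and tumour cells were sorted on day 16 with 5 libraries each.

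Cells take up cystine, the oxidised dimer of cysteine, through system xc-, a glutamate exchanger built from the light chain xCT that Slc7a11 encodes and a heavy chain that Slc3a2 encodes. Cysteine can also be made from methionine by transsulfuration, in which cystathionine beta-synthase (Cbs) joins homocysteine to serine and cystathionine gamma-lyase (Cth) cleaves the product to release cysteine. Glutathione is then built by glutamate-cysteine ligase (the catalytic subunit Gclc and the modifier Gclm) and glutathione synthetase (Gss), and it is degraded inside the cell by the gamma-glutamylcyclotransferase Chac1. The transcription factor ATF4, which is translated under amino acid shortage and other stress, and NRF2, the product of Nfe2l2, are known activators of genes of this pathway.

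In GENCODE M21 on GRCm38, the build of the files, all 4 are protein-coding genes. Slc7a11 lies at chr3:49892526-50443614 on the minus strand, and its span overlaps 5 other annotated genes, among them the antisense gene Gm37854. Cth lies at chr3:157894248-157925077 on the minus strand and overlaps Gm43314. Cbs lies at chr17:31608894-31637238 on the minus strand and Chac1 at chr2:119351229-119354381 on the plus strand. The sources used here do not say whether reads were counted by strand, so reads of overlapping genes may be included in the values of Slc7a11 and Cth.

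The promoters of Slc7a11 and Chac1 are shown because both hold the motif of the amino acid response element, which ATF4 binds. The RefSeq windows on GRCm38.p6 run from 250 bases before the gene start to 50 after it, 3 of the 4 genes were matched, and each sequence is given 5′ to 3′ on the strand of the gene with the motif TGATGNAA, on either strand, in capitals.
Slc7a11, chr3:50443564-50443863, minus strand: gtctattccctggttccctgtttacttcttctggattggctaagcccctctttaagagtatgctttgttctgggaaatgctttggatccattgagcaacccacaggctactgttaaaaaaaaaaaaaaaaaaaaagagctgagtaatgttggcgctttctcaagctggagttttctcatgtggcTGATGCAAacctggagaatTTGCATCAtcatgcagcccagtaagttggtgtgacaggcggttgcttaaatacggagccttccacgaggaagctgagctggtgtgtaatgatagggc
Chac1, chr2:119350992-119351291, plus strand: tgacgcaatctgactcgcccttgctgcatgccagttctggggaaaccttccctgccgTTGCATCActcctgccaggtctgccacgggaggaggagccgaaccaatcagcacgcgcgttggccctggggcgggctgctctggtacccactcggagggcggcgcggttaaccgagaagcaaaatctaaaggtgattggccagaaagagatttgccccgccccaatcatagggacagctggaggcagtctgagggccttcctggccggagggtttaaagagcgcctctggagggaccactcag
The Slc7a11 window held 2 matches, TGATGCAA at position -66 and its reverse complement TTGCATCA at position -47, counted from the gene start, and the Chac1 window held 1, TTGCATCA at position -193. The Cbs window, chr17:31637156-31637455 on the minus strand, held 0. Of 32851 promoter windows of the same length, 3.97% held at least 1 match and 0.0700% held 2 or more. The antioxidant response motif TGACNNNGC, which NRF2 binds, was in none of the 3 windows and in 12.4% of all windows. A match describes letters in this window and was not tested as a binding site.

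Values at 36 h are the authors' normalized counts, whose sums per library ran from 16847994 to 17134536, and values at 32 h and on day 16 are TPM, scaled for transcript length and to a total of 1000000 per library, which leaves no measure of depth. Each library had 11884 to 13428 genes detected. Correlations between replicates were 0.984 to 0.989 in both culture experiments and 0.917 to 0.988 on day 16. The 8 T cell markers summed to at most 1.30 TPM in the 32 h cultures, with Cd3e, Cd3d and Cd2 at 0, and to 2231 to 3629 TPM in OT1 libraries against 3.73 to 5.91 TPM in tumour libraries. The labels do not say that replicates were separate cultures or animals. The p-values thus set a difference only against the spread between these libraries, and that spread may be technical. Tests below are from limma fitted on log2(value + 1) over all genes of a table that passed a filter on low values, with Benjamini-Hochberg adjustment over those genes and a threshold of 0.05. A log2 difference is on that scale and understates the change of genes at low levels.

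At 36 h Slc7a11, Cth and Chac1 were each higher in BAY-876 than in vehicle, and Chac1 by far the most. Chac1 stood at 158, 172 and 179 normalized counts in BAY-876 libraries, against 12.5, 16.6 and 18.2 in vehicle libraries. The groups did not come near each other. They averaged 169.7 ± 10.8 with BAY-876 and 15.7 ± 2.95 with vehicle (SD, n = 3 each), a ratio of means of 10.8. The log2 difference was 3.36 (SE 0.20, limma adjusted p = 7.29e-05), and Chac1 had the 3rd highest log2 difference of 12937 genes tested.

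Cth had 263, 358 and 376 normalized counts in BAY-876 libraries, against 118, 121 and 176 in vehicle libraries. Slc7a11 had 187, 259.5 and 279 normalized counts with BAY-876, against 103, 124 and 110.3 with vehicle. For both genes every BAY-876 library lay above every vehicle library, with BAY-876 replicate 1 the lowest of its group. The means were 332 ± 60.7 with BAY-876 and 138 ± 32.3 with vehicle for Cth, and 242 ± 48.5 with BAY-876 and 112 ± 10.7 with vehicle for Slc7a11 (SD, n = 3 each). Cth rose by 1.27 on the log2 scale (SE 0.19, limma adjusted p = 0.00431) and Slc7a11 by 1.08 (SE 0.17, limma adjusted p = 0.00513). In bulk RNA such a difference cannot be told apart from a change in the share of cells that carry the transcript.

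Cbs was close to the lower limit of the measurement. It had 26.9, 28.1 and 5.40 normalized counts in BAY-876 libraries, against 5.17, 7.07 and 6.32 in vehicle libraries. Replicates 1 and 2 of BAY-876 were high and replicate 3 lay within the vehicle libraries. Only 2 libraries reached 10 normalized counts, so Cbs was not in the fit. Its log2 difference of 1.28 gave p = 0.3 in an exact two-sided permutation test, for which 0.1 is the smallest p that 3 against 3 allows. Thus the 3 genes in the fit were called higher, beside 7.34% of all genes tested, and 0 were called lower, beside 7.1%. Summed fibroblast markers, which LLC cells also carried, were 21305 to 22997 normalized counts with BAY-876 and 16588 to 17667 with vehicle, where 1 of 4 tested was called higher. Summed tumour epithelial markers were 24017 to 24724 normalized counts with BAY-876 and 25449 to 25847 with vehicle, where 1 of 6 was called lower. Their part in these results was not tested.

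**Figure D1:**
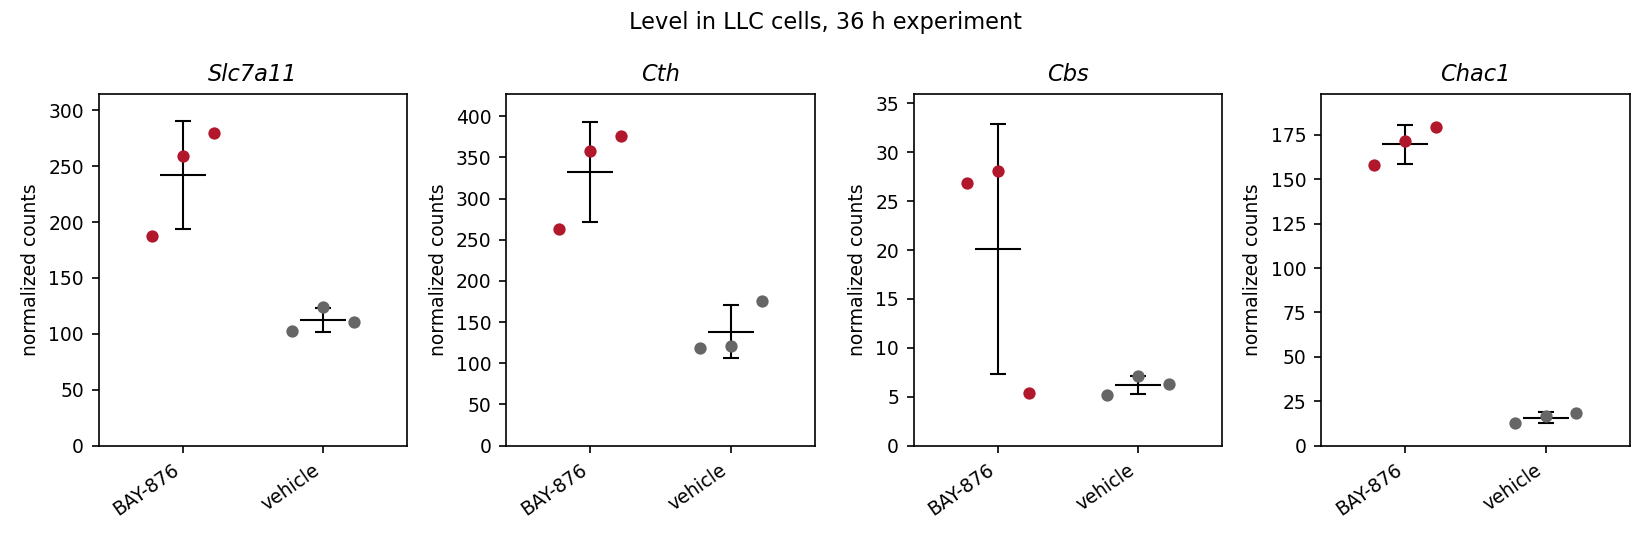
Normalized counts of the 4 genes in LLC cells at 36 h, BAY-876 left of vehicle, 1 point per library, with the group mean and SD as black bars. The BAY-876 libraries of Chac1 sit at 158 to 179 above vehicle libraries at 12.5 to 18.2, while the BAY-876 libraries of Cbs are split.

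In the 32 h experiment the 4 genes had 4 different orders of level over the treatments. Slc7a11 was highest with both agents, Cth followed BAY-876 and was highest with both, Chac1 followed BAY-876 and was lowest with TNF alone, and Cbs was low throughout.

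Slc7a11 had 10.6, 8.03 and 8.45 TPM with BAY-876+TNF, 3.24, 2.95 and 3.45 TPM with BAY-876, 4.07, 3.82 and 3.07 TPM with TNF, and 2.10, 2.00 and 2.13 TPM in control. Each treated group lay wholly above control, the combination lay above all others, and the BAY-876 and TNF libraries overlapped. The means were 9.02 ± 1.37, 3.21 ± 0.254, 3.65 ± 0.520 and 2.08 ± 0.0649 TPM in the same order of groups (SD, n = 3 each).

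Against control, Slc7a11 rose by 0.45 on the log2 scale with BAY-876 (SE 0.12, limma adjusted p = 0.0127) and by 0.59 with TNF (SE 0.12, limma adjusted p = 0.00200). The combination was 1.24 above BAY-876 (limma adjusted p = 7.46e-06) and 1.11 above TNF (limma adjusted p = 5.26e-05). It stood 1.70 above control (limma adjusted p = 2.93e-07), a ratio of means of 4.34. No other gene of the 4 was called higher with each agent alone.

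Cth had 49.99, 47.8 and 44.7 TPM with BAY-876+TNF, 29.0, 28.2 and 31.9 TPM with BAY-876, 13.4, 12.2 and 14.8 TPM with TNF, and 13.3, 13.7 and 15.5 TPM in control. The libraries fell into 3 levels, with the combination on top, BAY-876 next, and TNF and control overlapping at the bottom. The means were 47.5 ± 2.66, 29.7 ± 1.97, 13.5 ± 1.27 and 14.2 ± 1.19 TPM in that order (SD, n = 3 each).

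BAY-876 raised Cth by 1.02 on the log2 scale over control (SE 0.08, limma adjusted p = 6.23e-06). In the presence of TNF it stood 1.75 higher than with TNF alone (limma adjusted p = 2.18e-07), the 9th highest log2 difference of 12780 genes tested. The difference of TNF from control was -0.07 with a 95% interval from -0.25 to 0.11 (limma adjusted p = 0.525), and it was 0.031 after quantile normalization. With BAY-876 present, TNF-treated cells were 0.66 higher than cells with BAY-876 alone (limma adjusted p = 5.86e-05).

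Chac1 had 33.3, 31.1 and 33.3 TPM with BAY-876+TNF, 38.8, 31.9 and 33.1 TPM with BAY-876, 12.2, 10.8 and 11.3 TPM with TNF, and 19.2, 19.5 and 18.7 TPM in control. The 2 groups with BAY-876 overlapped and lay above control, and every TNF library lay below every control library. The means were 32.6 ± 1.25, 34.6 ± 3.65, 11.4 ± 0.692 and 19.2 ± 0.404 TPM in that order (SD, n = 3 each).

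Chac1 rose by 0.82 with BAY-876 (SE 0.08, limma adjusted p = 1.40e-05) and fell by 0.70 with TNF (SE 0.08, limma adjusted p = 1.57e-05), both on the log2 scale against control. The combination was 1.43 higher than TNF alone (limma adjusted p = 3.28e-07) and 0.74 higher than control (limma adjusted p = 5.48e-06). Its difference from BAY-876 alone was -0.08 with a 95% interval from -0.24 to 0.08 (limma adjusted p = 0.421), and it was 0.0030 when BAY-876 replicate 1, the highest library, was left out.

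Cbs had 0.439, 0.400 and 0.458 TPM with BAY-876+TNF, 0.841, 1.45 and 2.599 TPM with BAY-876, 1.30, 0.185 and 0.474 TPM with TNF, and 1.30, 0.611 and 1.20 TPM in control. The combination libraries were close together and below every BAY-876 and every control library, while the other 3 groups overlapped. The means were 0.432 ± 0.0294, 1.63 ± 0.893, 0.654 ± 0.580 and 1.04 ± 0.372 TPM in that order (SD, n = 3 each).

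The combination was 0.82 below BAY-876 on the log2 scale (difference -0.82, SE 0.28, limma adjusted p = 0.0324). This call was lost when any 1 of the 3 combination libraries or BAY-876 replicate 2 or 3 was left out, with adjusted p = 0.134 without BAY-876 replicate 3, and the difference was -1.57 with a pseudocount of 0.1 TPM (limma adjusted p = 0.0421). The other differences of Cbs did not pass the threshold: 0.33 for BAY-876 against control (95% interval -0.28 to 0.94, limma adjusted p = 0.383), -0.34 for TNF against control (limma adjusted p = 0.352), -0.15 for the combination against TNF (limma adjusted p = 0.720) and -0.49 for the combination against control (limma adjusted p = 0.154). In TPM, which can be compared between genes, mean Cth was above mean Cbs in all 4 groups, with 14.2 TPM of Cth and 1.04 TPM of Cbs in control.

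**Figure D2:**
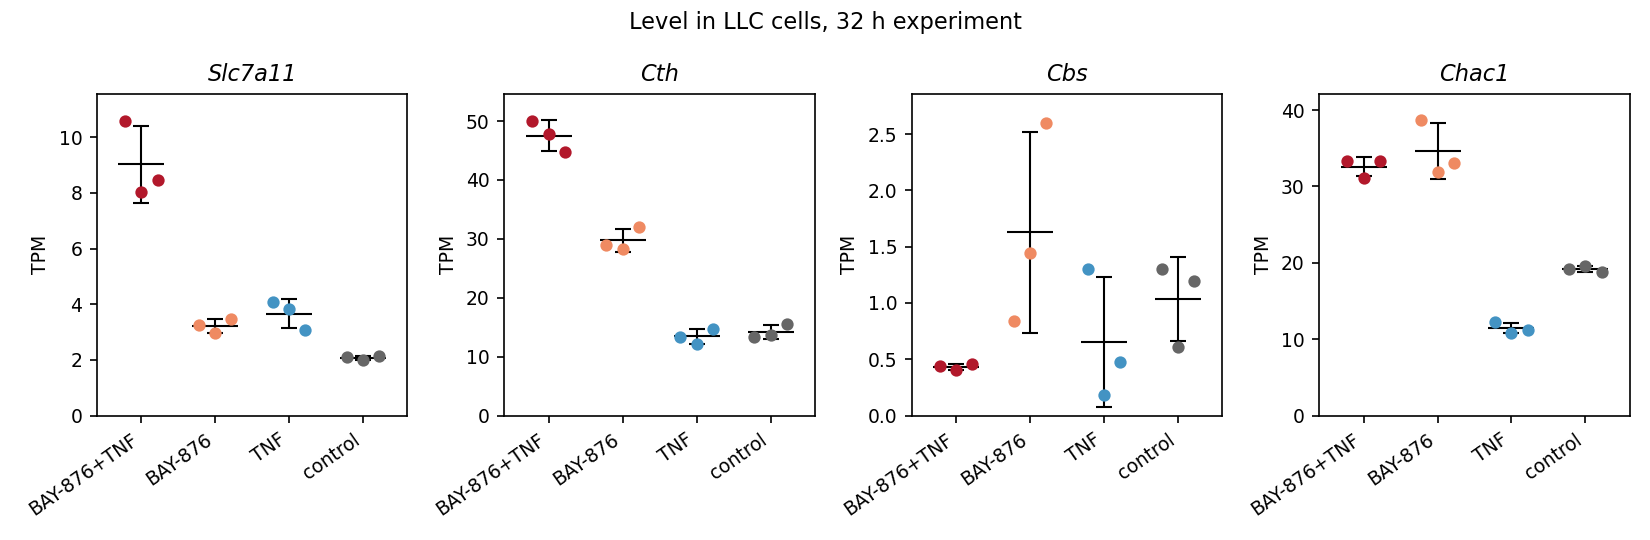
TPM of the 4 genes in LLC cells of the 32 h experiment, 1 point per library, with the group mean and SD as black bars, from left BAY-876+TNF, BAY-876, TNF and control. Slc7a11 and Cth are highest with both agents at 9.02 and 47.5 TPM, Chac1 overlaps between the 2 groups with BAY-876, and Cbs stays below 3 TPM.

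Read against all genes, 3 of 4 were called higher for BAY-876 against control, beside 11.5% of genes tested, and 0 lower, beside 25.8%. For TNF against control 1 was higher, beside 19.4% of genes, and 1 was lower, beside 26.1%. For the combination against TNF 3 were higher, beside 10.4%, and 0 lower, beside 23.6%. Against control 3 were higher with the combination, beside 20.9%, and 0 lower, beside 37.9%. For the combination against BAY-876 2 were higher, beside 19.3%, and 1 was lower, beside 24.8%. These comparisons share libraries, so their counts are not independent of each other. The 4 genes were chosen with earlier results of these data known, so the counts beside the shares are a description and not a test.

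Whether BAY-876 acted differently with and without TNF was tested as the interaction, the log2 difference of BAY-876 in TNF-treated cells minus that in cells without TNF. It was 0.73 for Cth (SE 0.12, limma adjusted p = 0.0116) and 0.62 for Chac1 (SE 0.11, limma adjusted p = 0.0144), and both were called higher, beside 0.736% of all genes tested, while 0 were called lower, beside 0.822%. For Slc7a11 it was 0.65, with a 95% interval from 0.28 to 1.03, an unadjusted p of 0.00272 and a limma adjusted p of 0.0901. For Cbs it was -0.48, with a 95% interval from -1.35 to 0.39 (limma adjusted p = 0.638).

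The level with both agents can be set beside what the single treatments would give together. Cth reached 47.5 TPM with both agents, against 29.0 TPM if the 2 single differences from control were added and 28.2 TPM if the 2 ratios were multiplied. Slc7a11 reached 9.02 TPM, against 4.79 TPM for added differences and 5.65 TPM for multiplied ratios. Chac1 reached 32.6 TPM, against 26.9 TPM added and 20.6 TPM multiplied, which is close to its level with BAY-876 alone. Cbs stood at 0.432 TPM, against 1.25 TPM added and 1.03 TPM multiplied.

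**Figure D3:**
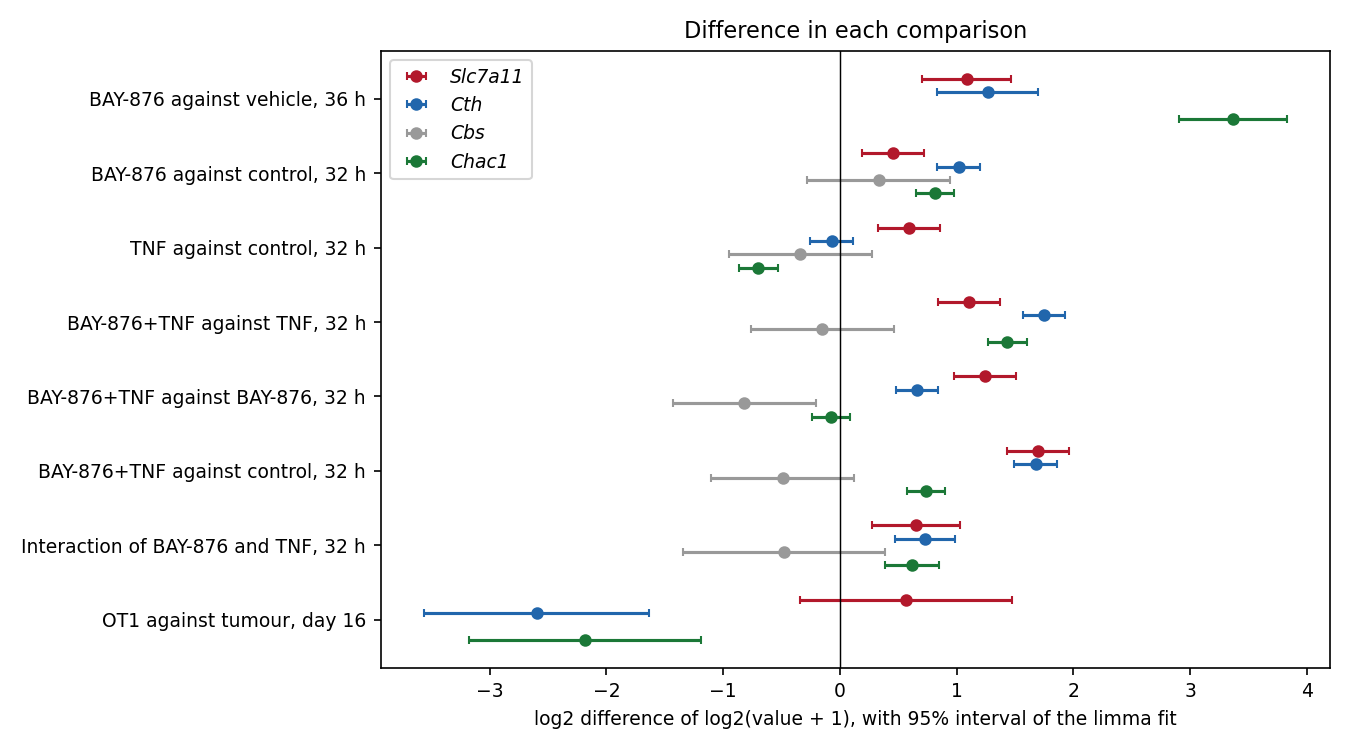
Log2 difference of the 4 genes in the 8 comparisons, the first named group minus the second, with 95% intervals of the limma fit. Points right of the line are higher in the first named group. Cbs is shown where it passed the filter on low values, and the intervals of Cbs are the widest of the 32 h experiment.

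The authors' deposited tables of the 32 h experiment give the same directions for the values quoted here. For BAY-876 against control, the authors' deposited table has 0.73 for Slc7a11 (adjusted p = 9.01e-07), 1.17 for Cth (adjusted p = 2.74e-19) and 0.95 for Chac1 (adjusted p = 1.19e-14). For TNF against control, the authors' deposited table has 0.88 for Slc7a11 (adjusted p = 1.17e-08) and -0.67 for Chac1 (adjusted p = 1.57e-05). For the combination against BAY-876, the authors' deposited table has -1.75 for Cbs (adjusted p = 0.00875) and -0.03 for Chac1 (adjusted p = 0.892).

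The response to BAY-876 at 36 h and in the 32 h experiment stands in separately normalized tables of different units, after different exposure, so the 2 were not tested against each other. The ratio of means for Chac1 was 10.8 at 36 h and 1.81 in the 32 h experiment. For Cth the ratios were 2.40 and 2.10, and for Slc7a11 they were 2.15 and 1.55. In both experiments the same 3 genes were called higher. Cbs was not called for BAY-876 against control in the 32 h experiment. At 36 h it was below the filter and could not be called, with a ratio of means of 3.26.

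The genes whose pattern over the 12 libraries of the 32 h experiment was most like each of the 4 were found by Pearson correlation of log2(TPM + 1) among genes with a mean of at least 5 TPM, as a description. For Cth they were Atf4 at 0.982, Psph, which makes serine, at 0.979 and Hax1 at 0.974. For Chac1 they were the lysosomal protease Ctsb and Aldh1l2, a mitochondrial folate enzyme, both at 0.991, and the mitochondrial phosphoenolpyruvate carboxykinase Pck2 at 0.987. For Slc7a11 they were Slc25a39, the mitochondrial glutathione carrier, at 0.985, and Gadd45a and Fam185a at 0.976 each.

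For Cbs the highest values were lower, with Ears2 at 0.867, Zfp229 at 0.853 and Emc9 at 0.844. Among the 4 themselves, Cth correlated with Chac1 at 0.853 and with Slc7a11 at 0.789, and Slc7a11 with Chac1 at 0.402. All points share the 4 treatments, so these values describe group levels more than variation within a group.

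Of the carriers of cystine and cysteine other than Slc7a11, 4 were tested. At 36 h 3 of them rose and 0 fell with BAY-876, beside 7.34% and 7.1% of all genes tested. Their median log2 difference was 0.43, beside 0.00 over all genes. Slc3a2, the partner of xCT, averaged 4601 ± 112 normalized counts in BAY-876 and 3438 ± 163 in vehicle (log2 difference 0.42, limma adjusted p = 0.00209). The alanine, serine and cysteine carrier Slc1a4 rose by 0.44 (limma adjusted p = 0.00334), and the lysosomal cystine exporter Ctns by 0.76 (limma adjusted p = 0.0125, and 0.0525 without vehicle replicate 3).

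In the 32 h experiment 1 of the 4 rose and 0 fell with BAY-876 against control, namely Slc1a4 (log2 difference 0.54, limma adjusted p = 2.99e-05). Of all genes tested, 11.5% were called higher and 25.8% lower. Slc3a2 averaged 344 ± 12.6 TPM with BAY-876+TNF, 343 ± 14.0 TPM with BAY-876, 257 ± 5.43 TPM with TNF and 328 ± 11.4 TPM in control. It fell by 0.35 with TNF (limma adjusted p = 2.96e-05), where Slc7a11 rose, and its level with both agents was close to that with BAY-876. Against TNF alone the combination had 3 of the 4 higher and 0 lower, beside 10.4% and 23.6% of all genes tested. The interaction was called for Slc3a2 at 0.35 (limma adjusted p = 0.0116) and for Slc1a4 at 0.37 (limma adjusted p = 0.0427). The call of Slc1a4 was lost under 12 of 17 alternatives, with an adjusted p of up to 0.104, and that of Slc3a2 under 0 of 17.

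Of the genes of the methionine cycle, apart from Cth and Cbs, 8 were tested. At 36 h Ahcyl2 rose and Mat2a and Mtrr fell with BAY-876, beside 7.34% of all genes called higher and 7.1% lower. The median log2 difference of the 8 was -0.07, beside 0.00 over all genes. The call of Ahcyl2 was lost under 8 of 11 alternatives and that of Mtrr under 5 of 11. Mat2a, which makes S-adenosylmethionine, averaged 6914 ± 86.3 normalized counts with BAY-876 and 10665 ± 198 with vehicle (log2 difference -0.63, limma adjusted p = 8.51e-05). In the 32 h experiment 3 of the 8 rose and 1 fell with BAY-876 against control, beside 11.5% and 25.8% of all genes tested. The median of the 8 was 0.15, beside -0.09 over all genes. Those that rose included the methionine synthase Mtr (log2 difference 0.50, limma adjusted p = 0.000534), while Mat2a differed by 0.08 (limma adjusted p = 0.0920). With TNF 4 rose and 1 fell, beside 19.4% and 26.1% of all genes tested. Those that rose included Mtrr by 0.47 (limma adjusted p = 0.000557) and Mat2a by 0.26 (limma adjusted p = 7.21e-05). With the combination against control 5 rose and 1 fell, beside 20.9% and 37.9%. None of the 8 passed the interaction test of limma, and 1, Ahcyl1, had an unadjusted p under 0.05.

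Of the 3 genes of glutathione synthesis, limma called 0 with BAY-876 alone at 36 h, where Gclm was lower at an unadjusted p under 0.05 (1 of 3), and 0 in the 32 h experiment, where 0 of 3 had an unadjusted p under 0.05. With TNF against control 2 of 3 rose, beside 19.4% of all genes tested. Gclm rose by 0.26 (limma adjusted p = 0.0150) and Gclc by 0.18 (limma adjusted p = 0.0374). The call of Gclc was lost under 6 of 18 alternatives and that of Gclm under 2 of 18. Gclm averaged 110.2 ± 8.50 TPM with BAY-876+TNF, 68.8 ± 5.21 TPM with BAY-876, 87.5 ± 2.04 TPM with TNF and 73.2 ± 6.63 TPM in control. The combination was 0.67 above BAY-876 for Gclm (limma adjusted p = 2.21e-05), and the interaction of Gclm was 0.41 (limma adjusted p = 0.0851).

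Of the genes of glutathione breakdown other than Chac1, 7 were tested in culture. At 36 h 2 rose and 0 fell with BAY-876, beside 7.34% and 7.1% of all genes tested. They were the dipeptidase Cndp2 at 0.38 (limma adjusted p = 0.0271) and the aminopeptidase Anpep at 0.36 (limma adjusted p = 0.0274). The call of Cndp2 was lost under 3 of 11 alternatives, without vehicle replicate 1, 2 or 3, and that of Anpep under 6 of 11. Chac2, the close relative of Chac1, differed by 0.48 at 36 h (limma adjusted p = 0.0643) and by -0.06 for BAY-876 against control in the 32 h experiment (limma adjusted p = 0.674). In that experiment 2 of the 7 rose and 1 fell with BAY-876, beside 11.5% and 25.8% of all genes tested. With TNF 2 rose and 0 fell, beside 19.4% and 26.1%. Of the 10 genes of cysteine breakdown and sulfide use 8 were tested. There limma called 0 at 36 h, where 1, Got1, was higher at an unadjusted p under 0.05. In the 32 h experiment 2 rose and 3 fell with BAY-876, and 2 rose and 4 fell with TNF, beside the same shares of all genes. Mpst, which moves sulfur from mercaptopyruvate, averaged 39.8 ± 3.73 TPM with BAY-876+TNF, 67.6 ± 0.806 TPM with BAY-876, 57.8 ± 5.09 TPM with TNF and 95.04 ± 10.7 TPM in control.

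All 13 regulators were tested. At 36 h 6 rose and 0 fell with BAY-876, beside 7.34% and 7.1% of all genes tested. Trib3, a pseudokinase induced by ATF4, averaged 984 ± 34.8 normalized counts in BAY-876 and 262 ± 53.4 in vehicle (log2 difference 1.93, limma adjusted p = 0.000168). Ddit3, which encodes the stress factor CHOP, rose by 1.33 (limma adjusted p = 0.000238) and Nupr1 by 0.61 (limma adjusted p = 0.00320). The rise of Atf4 was small, from 9286 ± 103 normalized counts in vehicle to 10308 ± 18.4 in BAY-876 (log2 difference 0.15, limma adjusted p = 0.0328). Its call was lost under 8 of 11 alternatives and that of Nfe2l2 under 4 of 11.

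In the 32 h experiment 4 regulators rose and 2 fell with BAY-876 against control, beside 11.5% and 25.8% of all genes tested. With TNF 2 rose and 8 fell, beside 19.4% and 26.1%. The smallest p of the list for TNF was that of Trp53, at 230 ± 8.85 TPM with TNF and 133 ± 4.09 TPM in control. Nupr1, which rose at 36 h, was not called here for BAY-876 against control (log2 difference -0.16, limma adjusted p = 0.135). For TNF against control its difference was -0.93 (limma adjusted p = 1.92e-06), and with the combination it was also called lower than control. Against TNF alone the combination was higher for Nupr1 by 0.24 (limma adjusted p = 0.0318), a call lost under 5 of 18 alternatives. Atf4 averaged 1038 ± 50.9 TPM with BAY-876+TNF, 890.1 ± 45.3 TPM with BAY-876, 566 ± 9.39 TPM with TNF and 556 ± 10.9 TPM in control, with TNF and control close together at the bottom, as for Cth. Trib3 averaged 182 ± 16.3 TPM with BAY-876+TNF, 194 ± 13.8 TPM with BAY-876, 59.2 ± 0.621 TPM with TNF and 92.4 ± 9.55 TPM in control, the same order of groups as Chac1. Its interaction was 0.53 (limma adjusted p = 0.0437), and that of Nfe2l2 was 0.30 (limma adjusted p = 0.0474). These calls were lost under 12 and 14 of 17 alternatives, with adjusted p of up to 0.104 and 0.109. Summed markers of the tumour epithelial list were below control in each treated group and lowest with both agents. They stood at 333 to 349 TPM with BAY-876+TNF and 812 to 836 TPM with BAY-876. With TNF they stood at 464 to 495 TPM, and in control at 954 to 1025 TPM. Against control, 3 of 6 were called lower with BAY-876, 4 lower and 1 higher with TNF, and 6 lower with the combination. Of all genes tested, 25.8%, 26.1% and 37.9% were called lower in these comparisons. Fibroblast markers were lower in the groups with TNF, at 300.04 to 342 TPM with BAY-876+TNF and 359 to 422 TPM with TNF. They stood at 829 to 839 TPM with BAY-876 and 839 to 861 TPM in control. Of 3 tested, 1 was called lower with BAY-876, 2 lower with TNF, and 2 lower and 1 higher with the combination, each against control. Myeloid markers summed to 22.1 to 25.0 TPM with BAY-876+TNF and 18.8 to 22.5 TPM with BAY-876. With TNF the sum was 18.2 to 18.4 TPM, and in control 13.2 to 15.1 TPM. Itgam, Adgre1, Fcgr3, Aif1, C1qa, C1qc and Tyrobp were at 0 in every library. Of 15 myeloid markers 3 were tested. Against control, 1 was called higher and 1 lower with each agent alone, and 2 higher and 1 lower with the combination. Of all genes tested, 11.5% were called higher with BAY-876, 19.4% with TNF and 20.9% with the combination. Their part in these results was not tested.

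**Figure D4:**
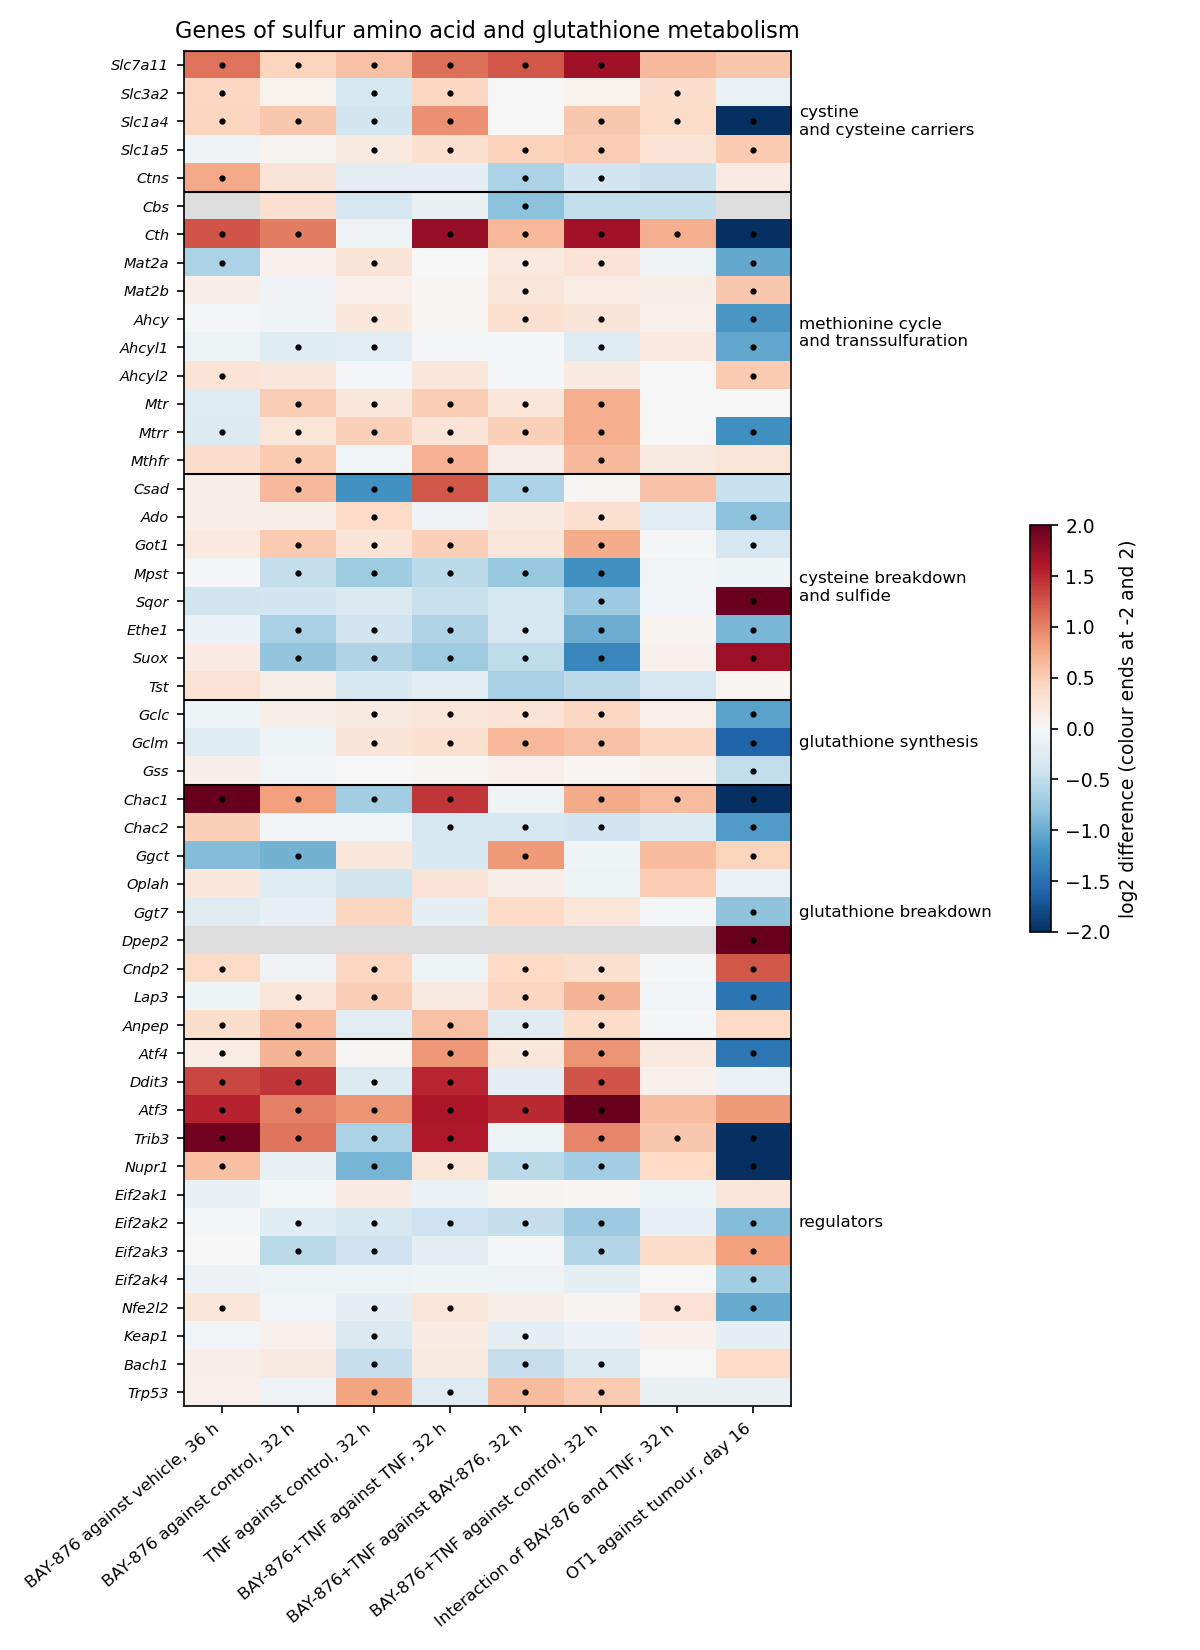
Log2 differences of the tested genes of 6 pathway lists (rows) in the 8 comparisons (columns), red for higher and blue for lower in the first named group, with colours ending at -2 and 2. A dot marks a limma adjusted p under 0.05 and grey a gene that was not tested. Chac1, Cth, Trib3 and Slc1a4 are red for BAY-876 at 36 h and dark blue for OT1 against tumour cells.

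On day 16 Cth and Chac1 were lower in OT1 cells than in tumour cells, and Slc7a11 was detected in both. Cth had 2.33, 1.36, 1.342, 0.882 and 0.469 TPM in OT1 libraries, against 28.0, 17.5, 19.8, 5.29 and 4.90 TPM in tumour libraries. The groups did not overlap, and tumour libraries 4 and 5 were the nearest to the OT1 libraries. Cth averaged 1.28 ± 0.693 TPM in OT1 cells and 15.1 ± 9.94 TPM in tumour cells (SD, n = 5 each), and it fell by 2.599 on the log2 scale (SE 0.44, limma adjusted p = 0.000206).

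Chac1 had 5.18, 1.63, 2.21, 1.17 and 0.295 TPM in OT1 libraries, against 19.4, 14.2, 19.2, 6.98 and 4.61 TPM in tumour libraries. The groups met at their edges, where OT1 library 1 lay above tumour library 5. Chac1 averaged 2.10 ± 1.86 TPM in OT1 cells and 12.9 ± 6.84 TPM in tumour cells, and it fell by 2.18 (SE 0.45, limma adjusted p = 0.000945). With these, 2 of the 3 genes in the fit were called lower, beside 44.4% of all genes tested, and 0 higher, beside 30.1%. A lower call was thus common in this comparison.

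Slc7a11 had 3.13, 6.74, 6.25, 2.39 and 5.66 TPM in OT1 libraries, against 4.93, 5.09, 4.96, 0.821 and 0.898 TPM in tumour libraries. The groups overlapped, and the spread within each was wide. The log2 difference was 0.56 with a 95% interval from -0.34 to 1.47 (limma adjusted p = 0.235). Cbs was at or below 0.330 TPM in OT1 libraries and at or below 0.547 TPM in tumour libraries, with 1 tumour library listed at 0. It did not pass the filter, and its log2 difference of -0.03 gave p = 0.849 in an exact two-sided permutation test.

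Tumour libraries 4 and 5 were low in Slc7a11, Cth and Chac1 alike. They were also the lowest tumour libraries for Atf4, at 443 and 448 TPM, against 651, 579.7 and 630.3 TPM in tumour libraries 1 to 3. Slc1a4 showed the same order, at 19.8 and 21.9 TPM in tumour libraries 4 and 5 and at 38.9, 33.7 and 39.7 TPM in tumour libraries 1 to 3. No label distinguishes these libraries, and the difference was not tested.

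**Figure D5:**
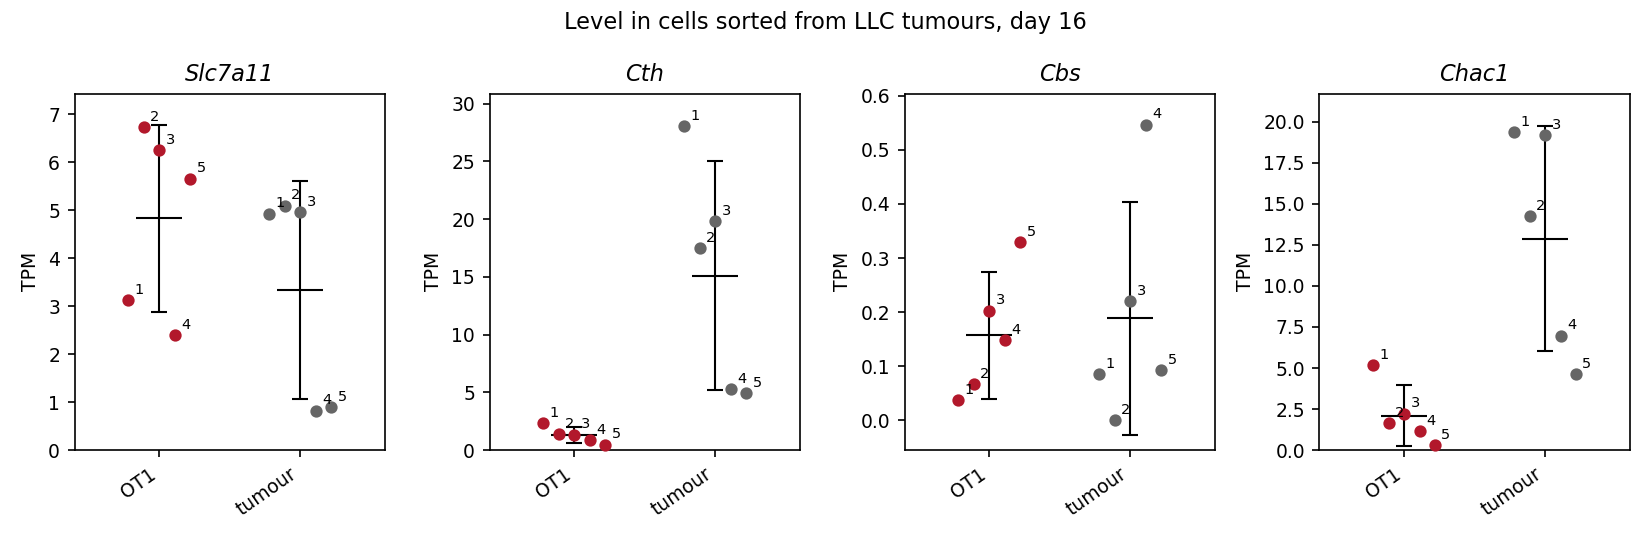
TPM of the 4 genes in cells sorted on day 16, OT1 left of tumour, with 1 point per library, its replicate number beside it, and the group mean and SD as black bars. Tumour libraries 4 and 5 lie at the bottom of their group for Slc7a11, Cth and Chac1.

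Transcripts of other cells were present in the sorted OT1 libraries. The 15 myeloid markers summed to 1090 to 14792 TPM in OT1 libraries and to 39.4 to 140.2 TPM in tumour libraries, with all 15 called higher in OT1 cells. The 6 tumour epithelial markers, all called lower, summed to 75.4 to 156 TPM in OT1 libraries and to 1023 to 1227 TPM in tumour libraries. Fibroblast markers, of which 5 of 5 tested fell, summed to 24.7 to 81.2 TPM in OT1 libraries and to 325 to 784 TPM in tumour libraries. Endothelial markers, of which 1 was tested and called higher, summed to 42.3 to 60.0 TPM in OT1 libraries and to 0.919 to 7.03 TPM in tumour libraries. Erythroid markers summed to 65.0 to 2781 TPM in OT1 libraries and to 10.1 to 899 TPM in tumour libraries, with tumour library 4 the highest of its group. Of the 5 erythroid markers tested, 0 were called in either direction. Over all genes tested, 30.1% were called higher and 44.4% lower. With only OT1 libraries 1 and 3, which had the lowest myeloid sums, the log2 difference was -2.25 for Cth (limma adjusted p = 0.00697) and -1.46 for Chac1 (limma adjusted p = 0.0258). The part of transcripts of other cells in the level of Slc7a11 in OT1 libraries was not tested.

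Of the 44 other tested genes of the 6 lists, 20 (45.5%) were called lower and 9 (20.5%) higher in OT1 cells on day 16, beside 44.4% and 30.1% of all genes. All 3 genes of glutathione synthesis fell, Gclm by 1.60 (limma adjusted p = 7.23e-05), Gclc by 1.06 (limma adjusted p = 2.94e-06) and Gss by 0.49 (limma adjusted p = 0.00684). Of 8 tested genes of the methionine cycle other than Cth and Cbs, 2 rose and 4 fell, with a median log2 difference of -0.51, beside -0.21 over all genes. Of 4 other carriers, Slc1a5 rose by 0.52 (limma adjusted p = 0.00704) and Slc1a4 fell by 2.97 (limma adjusted p = 1.06e-05), while Slc3a2 differed by -0.13 (limma adjusted p = 0.424).

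Among the 13 regulators 1 rose and 6 (46.2%) fell, beside 30.1% and 44.4% of all genes tested, so the share that fell was near that of all genes. Atf4 averaged 200.2 ± 28.1 TPM in OT1 cells and 550.4 ± 99.0 TPM in tumour cells (log2 difference -1.45, limma adjusted p = 1.59e-06). Of 8 tested genes of glutathione breakdown other than Chac1, 3 rose and 3 fell, beside the same shares of all genes, and Chac2 fell by 1.14 (limma adjusted p = 2.92e-06). Of 8 tested genes of cysteine breakdown and sulfide use 2 rose and 3 fell, again beside those shares, and the sulfite oxidase Suox rose by 1.72 (limma adjusted p = 2.17e-07).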

How the data were processed

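Per the labels' protocols, Trizol was used for extraction and a SMARTER mRNA kit for the libraries. The submitters' processing notes name mm10, DESeq2 1.34.0, STAR 2.6.1d and Salmon (0.14.1 at 36 h, 0.13.1 elsewhere). The sources used here do not give what each did or the annotation release. Values deposited for 36 h are a signal of normalized counts per gene, not whole multiples of a single read, so count tests were not applied. Values deposited for 32 h and day 16 are TPM. The authors' deposited tables of 4 comparisons at 32 h hold a log2 fold change and an adjusted p-value per gene, with a mean normalized signal. Of the deposited 32 h columns, 24 matched no sample of the labels and were left out. In 2 BAY-876+TNF libraries the treatment tag gives another compound number than the title, and they were grouped by title.

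Genes that reached 10 normalized counts (36 h) or 1 TPM (32 h, day 16) in 3 libraries, or in 5 on day 16, were kept and taken to log2(value + 1). limma 3.58.1 in R 4.3.3 with a mean-variance trend was fitted per table, with all 12 libraries of the 32 h experiment in 1 fit. It was run on simulated libraries with independent noise, for 1 comparison per table and not for the interaction. Only genes at higher levels were changed there, so that run cannot speak for genes as low as Cbs or for replicates that are not independent. Below the filter, an exact two-sided permutation test over libraries was used. The 4 genes, the 6 pathway lists (63 names) and the 6 marker lists (44 names) were chosen with earlier results of these data known. Named genes are the 4 and some of those with the smallest p of each list in each comparison (up to 3). The 3 most correlated genes are also named, and a few others for their roles or chosen after their values were seen. Other genes with such small p, among them Atf3, Ahcy, Ethe1 and Lap3, are not described in the text. Replicate numbers recur across groups. Deviations of same-numbered libraries from their group means correlated at -0.192 to 0.120 in the 32 h experiment and at 0.0453 to 0.111 on day 16. Libraries of different numbers were not compared, so these values cannot settle whether libraries were paired. The labels name no sequencing batch. Alternatives were another pseudocount (0.1 TPM or 10 normalized counts), no filter, a stricter filter on the mean (5 TPM or 100 normalized counts), quantile normalization, the replicate number as a block, fits of only the libraries compared, OT1 libraries 1 and 3 alone, and each library left out.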

Additional observations from a re-analysis of the deposited data

Results flagged for a closer look

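The response to BAY-876 was called different between cells with and without TNF for 6 of the genes described. They were Cth, Chac1 and 4 of the 43 other listed genes tested. Over all genes tested, 0.736% were called higher and 0.822% lower. Each call is from the interaction term of the limma fit over all 12 libraries of the 32 h experiment. The interaction, on the log2 scale, was 0.73 for Cth, 0.62 for Chac1, 0.53 for Trib3, 0.37 for Slc1a4, 0.35 for Slc3a2 and 0.30 for Nfe2l2. All 6 are positive: the log2 difference of BAY-876 against no BAY-876 was higher in TNF-treated cells than in cells without TNF. TNF alone lowered Chac1, Trib3, Slc1a4, Slc3a2 and Nfe2l2 and was not called for Cth. The calls of Trib3, Slc1a4 and Nfe2l2 lay near the threshold and were lost under 12, 12 and 14 of 17 alternatives, while those of Cth, Chac1 and Slc3a2 were lost under 0.

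On day 16, 96 groups of 5 libraries were examined for 48 genes, the 4 genes and the others that were tested, and in 4 groups a single library stood apart by Dixon's criterion. They were the lowest tumour library of Got1, an aspartate aminotransferase, at 57.1 TPM, the lowest OT1 library of Mpst at 45.9 TPM, the highest OT1 library of Anpep at 71.5 TPM and the highest tumour library of Anpep at 21.99 TPM. Chance alone flags about 1 in 20 such groups. The criterion looks for a single library and could not pick out tumour libraries 4 and 5, which lie together.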

How the results depend on the processing

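Calls of Slc7a11, Cth and Chac1 kept their direction and their side of the threshold under every alternative run for them. Of 172 calls of other listed genes, 38 were lost under at least 1 alternative, which made 226 of 2931 values, and 0 reversed; of 1608 list counts, 136 moved by over 1.5 times. Chac1 has no value at 36 h under the mean of 100 normalized counts, which it does not reach. Slc7a11 likewise does not reach the mean of 5 TPM in the 32 h experiment or on day 16, and has no value there under that filter. For Cbs, the call of BAY-876+TNF below BAY-876 was lost without a filter (-0.82, adjusted p = 0.0617) and after quantile normalization (-0.67, adjusted p = 0.0765), and ran from -1.05 to -0.57 with 1 library left out. The cause was not tested. Uncalled differences that changed sign were Cth for TNF against control after quantile normalization (0.031), Cbs for BAY-876+TNF against TNF without TNF replicate 1 (0.12, lowest -0.36), Chac1 for BAY-876+TNF against BAY-876 without BAY-876 replicate 1 (0.0030, lowest -0.13), and Cbs on day 16 with a pseudocount of 0.1 TPM (0.0021) and with 1 library left out (-0.085 to 0.072).

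Over all genes, 1868 were called at 36 h and 648 to 2394 with 1 library left out, with 648, 714 and 765 without vehicle replicates 3, 2 and 1 and 1072 without BAY-876 replicate 3. The interaction was called for 199 genes, and for 110 to 250 with 1 library left out. It was 110 and 122 without TNF replicates 2 and 3, 115 and 119 without BAY-876 replicates 2 and 3, and 127 and 117 without control replicates 1 and 2. Quantile normalization moved the split of higher to lower calls from 1473 and 3303 to 2238 and 2305 for BAY-876 against control, from 1323 and 3018 to 1860 and 2048 for BAY-876+TNF against TNF, and from 2671 and 4840 to 3676 and 3504 for BAY-876+TNF against control. There the median of all genes was -0.13 before it and 0.017 after it.

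With the replicate number as a block, 1563 genes were called at 36 h and 174 for the interaction, no call of the 4 genes changed, and the interaction calls of Trib3, Slc1a4 and Nfe2l2 were lost. The numbers share no stated source, and correlations of same-numbered libraries were -0.192 to 0.120 in the 32 h experiment, -0.0742 to -0.0194 in that of 36 h, and 0.0453 to 0.111 for day 16. TPM hold no depth, so the precision of Cbs, at or under 3 TPM, cannot be given by counting from them. For Cbs the authors' deposited tables of the 32 h experiment have mean normalized counts of 15.3 to 23.1. Their SE of its log2 fold change is 0.58 to 0.71.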
